A study of Mus musculus with 20 samples.

Results

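Genes known as modifiers of spinal muscular atrophy (SMA), together with the actin and microtubule genes named around them, were examined in the brain of the "Taiwanese" SMA mouse. They were taken by gene symbol from the deposited expression table, and all 10 symbols sought (Pls3, Ncald, Chp1, Coro1c, Pfn1, Pfn2, Cfl1, Stmn1, Rock1 and Rock2) were found among its 45700 genes. SMA brains (Smn-/-; SMN2tg/0) have both alleles of mouse Smn disrupted and carry 2 copies of human SMN2 on 1 allele, and the control littermates were heterozygous for mouse Smn and carried the SMN2 transgene too. The strain background was congenic FVB for both. Whole brains were taken at postnatal day 5, called early-symptomatic, with 2 replicates of each genotype and RNA fraction, and at postnatal day 7, called late-symptomatic, with 3. From brains of each group, total cytoplasmic RNA (the transcriptome, pooled from all fractions of a sucrose gradient) and polysomal RNA (the translatome, from the polysomal fractions only) were sequenced, which gave 20 libraries. The labels do not say whether a replicate number marks the same animal in both fractions, and such libraries are treated as 1 mouse below only where a mouse is left out or its sex is given.

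In SMA, motor neurons degenerate because the ubiquitous SMN protein is scarce, and actin dynamics and endocytosis at the nerve terminal are among the processes disturbed. Pls3 (plastin 3) bundles actin filaments and is a protective modifier in humans at high levels. Coro1c (coronin 1C) binds filamentous actin together with plastin 3. Ncald (neurocalcin delta) and Chp1 (calcineurin-like EF-hand protein 1) are calcium-binding proteins, and both act as protective modifiers when their levels are low. The other genes belong to cytoskeletal control. Pfn1 and Pfn2 (profilins) bind actin monomers, Cfl1 (cofilin 1) severs filaments, Rock1 and Rock2 are the ROCK kinases that act on profilin and, through LIM kinases, on cofilin, and Stmn1 (stathmin) destabilizes microtubules.

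Values are FPKM as the authors deposited them, fragment numbers scaled by transcript length and by the mapped fragments of the library, which can be compared between genes. They hold no counts, so the counting error behind a single value is unknown. Differences were tested with limma on log2(FPKM + 0.1) over the 15247 genes whose mean reached 1 FPKM, and all log2 ratios below are on that scale. All 10 genes passed this filter. SMA effects were called at an unadjusted p under 0.05, the threshold used for DEGs in the study, and p-values adjusted by the Benjamini-Hochberg procedure stand beside them. Their size is given with the standard error (SE) or the 95% interval, which leaves out 0 where the threshold was passed. With 2 mice against 2 an exact permutation test cannot go below p = 0.333, and with 3 against 3 not below 0.1. In bulk RNA, fewer cells of a type and less RNA per cell cannot be told apart.

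Smn1, the disrupted gene (ENSMUSG00000021645.14, chromosome 13 of GRCm38, 100124852 to 100137690), was read at similar levels in both genotypes. Its late-symptomatic polysomal values were 13.3, 11.9 and 12.5 FPKM in control against 13.1, 14.2 and 13.3 FPKM in SMA brains. The whole-gene value does not separate exons and therefore does not test the genotype labels. Summed over Rbfox3, Snap25, Syt1 and Tubb3, neuronal markers reached 362 to 1720 FPKM, and the low end came from the early-symptomatic control polysomal libraries, where Tubb3 is listed at 0. Liver markers summed to at most 0.28 FPKM, and skeletal muscle markers to at most 7.22 FPKM, mostly Acta1.

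The genes differed widely in level. Stmn1 was the most abundant, with a mean of 995 FPKM over the 20 libraries (range 560 to 1514), followed by Cfl1 with 815 (552 to 1035). These neighbours changed places between the stages, where age and any batch that followed stage cannot be told apart. Stmn1 was above Cfl1 in 8 of 8 early-symptomatic libraries and in 1 of 12 late-symptomatic ones. Pfn2, the profilin of neurons, came next with a mean level of 286 FPKM and was above Ncald, at 155 FPKM, in all 20 libraries. Ncald, Pfn1 (126 FPKM) and Coro1c (113 FPKM) lay close together. Ncald was above Pfn1 in 16 of 20 libraries and Pfn1 above Coro1c in 13. Chp1 had a mean of 32.5 FPKM. Pls3 (17.4 FPKM) and Rock2 (16.3 FPKM) were not clearly ordered, since Pls3 was the higher in 13 of 20 libraries. Rock1 was the lowest, at 6.53 FPKM, below Rock2 in all 20 libraries. Rock2 varied least, with a coefficient of variation of 9.4% over all libraries, and Stmn1 most, with 28.2%.

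**Figure D1:**
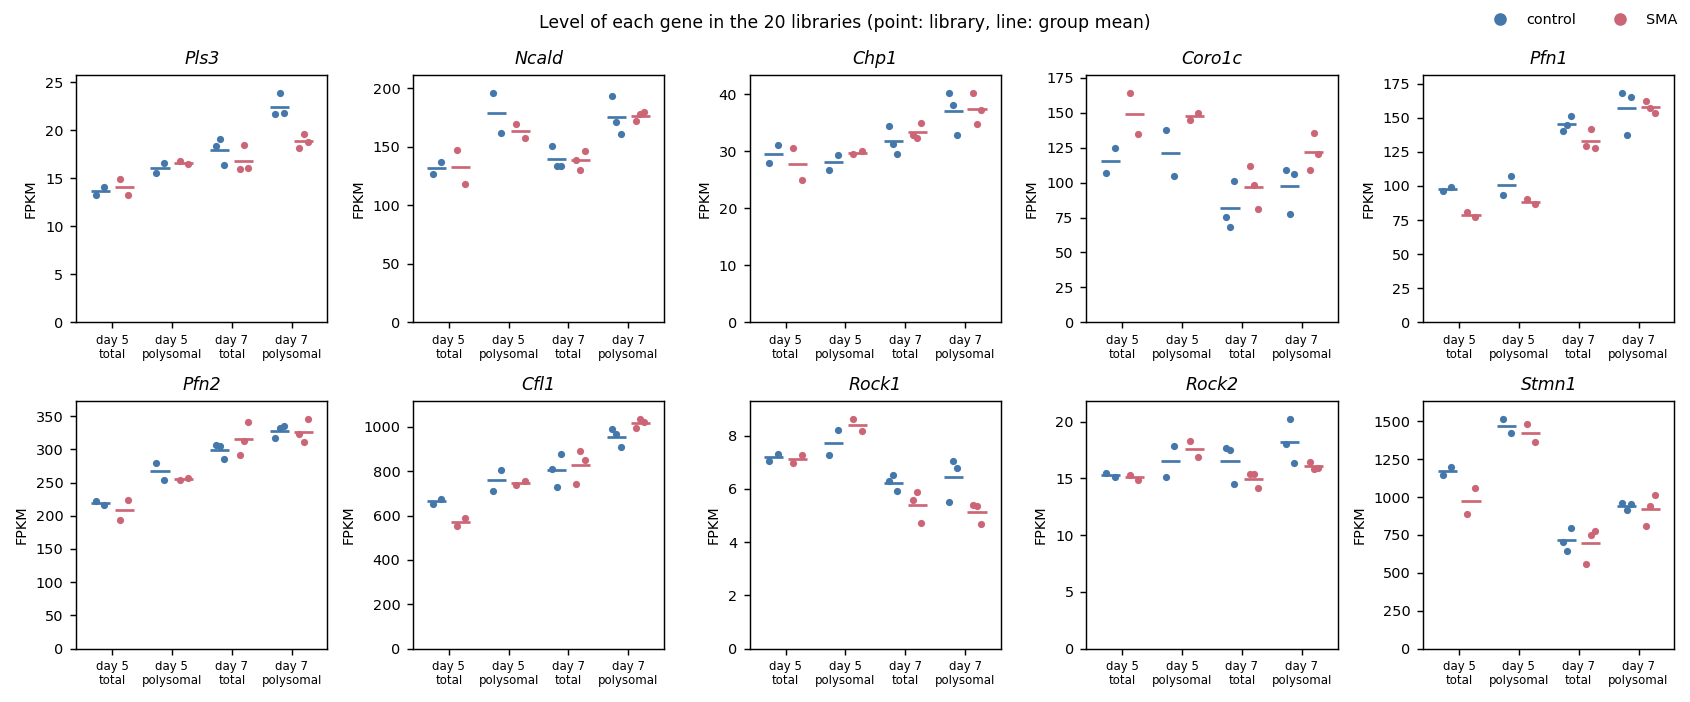
FPKM of each gene (vertical axis, from 0) in the 20 libraries, by stage and RNA fraction (horizontal axis) and genotype (colour); points are libraries and lines are group means. Most control and SMA points of a group overlap, and the steps between day 5 and day 7 in Stmn1 and Pfn1 are larger than most distances between genotypes.

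Reads of some of these genes cannot be fully told apart from those of overlapping or nearly identical genes. Ncald shares 333 nucleotides with Gm28221 on the other strand, which is listed at a median of 182 FPKM, and Coro1c shares 297 nucleotides with the antisense gene Gm17122, listed at 56.2 FPKM. The library kit keeps the strand, but alignment and quantification were run with default settings, which do not use it, so reads of these overlapping pairs cannot be told apart. Cfl1 has a processed pseudogene, Gm6180, that is 98.8% identical over 498 nucleotides and listed at a median of 3.35 FPKM, and it overlaps Snx32 on the other strand. Stmn1 has the pseudogene Gm11223 (99.8% identical, median 0.495 FPKM) and Chp1 the pseudogene Gm20056 (median 0 FPKM). Rock1 matches the pseudogene Gm5374, whose level was not analysed here. No transcript at least 95% identical over at least 100 nucleotides was found for Pls3, Pfn1, Pfn2 or Rock2.

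The first comparison asked whether the modifiers themselves differed between SMA and control brains. Of the 10 genes, 1 passed the threshold in the early-symptomatic transcriptome, against 8.25% of all tested genes, and none in the early-symptomatic translatome, against 12.5%. Late-symptomatic, none passed in the transcriptome (9.54% of all tested genes) and 1 in the translatome (10.7%). After adjustment none of the 10 passed in any of these comparisons, and neither did most other genes: 0.164% and 0.649% of the tested genes passed early and 0.111% and 0.0918% late, in the transcriptome and translatome. Fitted over both stages together, 1 of the 10 passed in the transcriptome (background 16.3%) and 1 in the translatome (20.8%), none of them after adjustment (0.866% and 1.84%). The median log2 ratio of the 10 genes over both stages was -0.05 in the transcriptome and -0.04 in the translatome, and over all tested genes it was 0.01 and -0.003. These shares are near the background.

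Pls3 (ENSMUSG00000016382.13, chromosome X, 75785654 to 75875182, minus strand) was lower in the late-symptomatic translatome of SMA brains. Polysomal values were 21.7, 23.9 and 21.7 FPKM in control against 18.1, 19.6 and 18.8 FPKM in SMA brains. Every SMA library was below every control library, and the log2 ratio was -0.25 ± 0.06 (SE, n = 3 each; 95% interval -0.40 to -0.11; limma adjusted p = 0.282). Total RNA of the same stage gave 18.3, 19.0 and 16.4 FPKM against 15.98, 18.5 and 16.02 FPKM, which overlap, with a log2 ratio of -0.09 (95% interval -0.31 to 0.13). At the early-symptomatic stage total values were 13.2 and 14.1 FPKM in control against 14.9 and 13.3 FPKM in SMA brains, and polysomal values were 15.5 and 16.6 against 16.7 and 16.5 FPKM. Here the groups overlapped in both fractions, with log2 ratios of 0.04 and 0.05. The change between the stages was itself past the threshold in polysomal RNA, with an SMA effect lower by 0.30 on the log2 scale at day 7 (SE 0.09, limma adjusted p = 0.298).

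Pls3 is X-linked, and sex was not balanced between the groups. Xist, the RNA of the inactive X, and the Y-linked gene Ddx3y marked 2 of 3 late-symptomatic control mice and 1 of 3 SMA mice as female. In females the late polysomal Pls3 levels were 21.7 and 23.9 FPKM in control and 18.8 FPKM in the SMA brain, and in males 21.7 FPKM in control against 18.1 and 19.6 FPKM. With only 1 SMA female and 1 control male at this stage, the spread within a sex is unknown. With sex as a term, an alternative chosen after seeing the data, the log2 ratio was -0.24 (95% interval -0.42 to -0.06). Early-symptomatic, both control mice were male, and 1 of 2 SMA mice was female.

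Coro1c (ENSMUSG00000004530.10, chromosome 5, 113842436 to 113908758, minus strand) had the largest SMA effects of the group in size. In early-symptomatic total RNA it stood at 107 and 125 FPKM in control against 164 and 135 FPKM in SMA brains, so both SMA values were above both controls. Early polysomal values were 138 and 105 FPKM in control against 145 and 150 FPKM in SMA brains. Late-symptomatic values were 75.4, 68.2 and 101 FPKM against 112, 98.1 and 81.4 FPKM in total RNA, which overlap. In late polysomal RNA they were 109, 77.4 and 106 FPKM against 109, 136 and 121 FPKM. The log2 ratio was 0.37 and 0.30 early (total and polysomal) and 0.26 and 0.33 late, none past the threshold alone. Over both stages the translatome gave 0.32 ± 0.13 (SE, n = 5 each; 95% interval 0.01 to 0.62; limma adjusted p = 0.224), and the transcriptome 0.31 ± 0.14, not past the threshold. The call in the translatome was lost without control mouse 2 of day 5, which gave 0.22, and also without SMA mouse 1 (0.33) or 2 (0.30) of day 5, control mouse 2 of day 7 (0.24) or SMA mouse 2 (0.28) or 3 (0.32) of day 7. It was also lost with sex as a term (0.32, 95% interval -0.002 to 0.65), a term added after seeing the data, in a fit blocked by replicate number (0.32; limma adjusted p = 0.325) and with no filter on low values (0.32; limma adjusted p = 0.39). The antisense gene Gm17122 had a log2 ratio of 0.04 in the same comparison (95% interval from -0.10 to 0.19). In the transcriptome over both stages Coro1c did pass the threshold with sex as a term (0.33, 95% interval 0.02 to 0.64).

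Ncald (ENSMUSG00000051359.12, chromosome 15, 37366175 to 37792570, minus strand) gave no call between genotypes in any comparison. Early total values in control were 126 and 137 FPKM, against 147 and 118 FPKM in SMA brains, and late total values were 151, 133 and 133 against 139, 130 and 146 FPKM. In late polysomal RNA the values were 194, 171 and 161 FPKM in control against 172, 178 and 180 FPKM in SMA brains. The SMA values lie inside the control range there. Over both stages the 95% intervals of the log2 ratio were -0.18 to 0.18 in total and -0.23 to 0.12 in polysomal RNA. The overlapping gene Gm28221 gave -0.06 and -0.15.

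Chp1 (ENSMUSG00000014077.11, chromosome 2, 119547697 to 119587027, plus strand) also overlapped between genotypes in total RNA. Early values were 27.9 and 31.2 FPKM in control against 30.6 and 25.0 FPKM in SMA brains, and late values were 34.5, 31.4 and 29.5 against 32.9, 32.4 and 34.9 FPKM. In early polysomal RNA both SMA values (29.6 and 30.0 FPKM) were above both control values (26.8 and 29.4 FPKM). The log2 ratio of 0.08 there did not pass the threshold (95% interval -0.15 to 0.32). Late polysomal values were 40.2, 38.2 and 32.8 FPKM against 40.3, 34.8 and 37.2 FPKM, which overlap. The log2 ratio over both stages was -0.01 in total RNA (95% interval -0.18 to 0.16) and 0.05 in polysomal RNA (-0.11 to 0.21). A change in either direction larger than these bounds lies outside the interval for both genes whose low levels are protective.

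Pfn1 (ENSMUSG00000018293.4, chromosome 11, 70651850 to 70654644, minus strand) was lower in the SMA transcriptome. Early total values were 96.7 and 99.5 FPKM in control against 81.3 and 76.9 FPKM in SMA brains, a log2 ratio of -0.31 ± 0.06 (SE, n = 2 each; limma adjusted p = 0.551). Late total values were 140, 145 and 151 FPKM against 130, 142 and 128 FPKM, where 1 SMA library lay inside the control range. Over both stages the log2 ratio was -0.22 ± 0.04 (SE, n = 5 each; limma adjusted p = 0.0814). In polysomal RNA the values were 93.6 and 107 against 90.3 and 86.9 FPKM early and 168, 137 and 165 against 163, 157 and 154 FPKM late. The polysomal log2 ratio over both stages was -0.08 (95% interval -0.25 to 0.08). Early-symptomatic log2 ratios rose with transcript length across genes, which are not independent (Spearman's rank correlation 0.414 in total and 0.331 in polysomal RNA, 15162 genes), against -0.0356 and -0.0626 late. The longest coding transcript of Pfn1 is short, at 861 nucleotides. After correction for length its early total log2 ratio was -0.07 (95% interval -0.50 to 0.37) and that over both stages -0.11 (-0.30 to 0.07), and neither call was kept. The early call was also lost without either day 5 control mouse, with log2 ratios of -0.33 without mouse 1 and -0.29 without mouse 2.

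Pfn2 (ENSMUSG00000027805.14, chromosome 3, 57841895 to 57848079, minus strand) overlapped between genotypes in total RNA at both stages, with 223 and 217 FPKM in control against 194 and 224 FPKM in SMA brains early. Late-symptomatic values were 306, 306 and 285 FPKM against 291, 313 and 341 FPKM. Its log2 ratio over both stages had a 95% interval of -0.15 to 0.15 in total and -0.15 to 0.08 in polysomal RNA. Cfl1 (ENSMUSG00000056201.6, chromosome 19, 5490485 to 5494029, plus strand) stood at 651 and 677 FPKM in early control and 552 and 591 FPKM in early SMA total RNA. Both SMA values were lower, but the log2 ratio of -0.22 did not pass the threshold (95% interval -0.65 to 0.22). Late total values were 811, 728 and 878 FPKM against 743, 891 and 850 FPKM, and the groups overlapped. In early polysomal RNA the values were 710 and 807 FPKM in control against 738 and 756 FPKM in SMA brains, again with overlap. Late polysomal values were 990, 968 and 910 FPKM against 994, 1035 and 1022 FPKM. Every late SMA value was higher there, the lowest by a small margin, and the log2 ratio of 0.09 did not pass the threshold (95% interval -0.14 to 0.32).

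Rock1 (ENSMUSG00000024290.8, chromosome 18, 10064401 to 10181792, minus strand) and Rock2 (ENSMUSG00000020580.9, chromosome 12, 16894978 to 16988274, plus strand) had polysomal levels in late SMA brains below most control levels. Rock1 stood at 5.52, 7.05 and 6.77 FPKM in control against 5.4, 5.36 and 4.68 FPKM in SMA brains. Every SMA value was lower, and the log2 ratio of -0.31 ± 0.13 (SE, n = 3 each) did not pass the threshold (95% interval -0.63 to 0.004). It passed with sex as a term, added after seeing the data (-0.37, 95% interval -0.71 to -0.02), with a pseudocount of 0.01, with each other filter on low values or none, with no trend, with 1 model over all libraries and without control mouse 1 of day 7 (-0.42), but in no other alternative. Rock2 stood at 18.1, 20.2 and 16.4 FPKM against 16.4, 15.9 and 15.9 FPKM, where the highest SMA library was level with the lowest control one, with a log2 ratio of -0.18 ± 0.08 (95% interval -0.39 to 0.04). In late total RNA Rock1 stood at 6.28, 6.52 and 5.92 FPKM in control against 5.6, 5.87 and 4.73 FPKM in SMA brains. Every SMA value was lower there too, and the log2 ratio of -0.21 did not pass the threshold (95% interval -0.48 to 0.06). For Rock2 the late total log2 ratio was -0.14 (95% interval -0.38 to 0.09). Early polysomal values of Rock1 were 7.28 and 8.20 FPKM against 8.62 and 8.17 FPKM. The SMA effect on polysomal Rock1 was lower at day 7 than at day 5 by 0.43 on the log2 scale (SE 0.18, limma adjusted p = 0.357). For Rock2 the same difference was -0.27 (95% interval -0.61 to 0.07). These are the longest transcripts of the group, 6440 and 7644 nucleotides. With the correction for length the SMA effect over both stages in total RNA was -0.19 for Rock1 (95% interval -0.37 to -0.01) and -0.18 for Rock2 (-0.33 to -0.02), both past the threshold, against -0.11 and -0.08 without it. The polysomal stage difference of Rock1 was no longer past it, at -0.28 (-0.69 to 0.13), and it was also lost without any of 8 of the 10 mice, with values between -0.35 and -0.47.

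Stmn1 (ENSMUSG00000028832.9, chromosome 4, 134468320 to 134473843, plus strand) was read at 1143 and 1201 FPKM in early control and 886 and 1058 FPKM in early SMA total RNA. Late total values were 704, 647 and 793 FPKM against 560, 750 and 775 FPKM. The early SMA values were both lower, but the log2 ratio of -0.28 had a 95% interval of -0.998 to 0.448. Over both stages the ratio was -0.16 in total and -0.04 in polysomal RNA, neither past the threshold. Their 95% intervals ended at 0.12 and 0.16. The longest coding transcript of Stmn1 has 1060 nucleotides, and after correction for length the early ratios were -0.04 in total and 0.15 in polysomal RNA. Over both stages they were then -0.06 (95% interval -0.30 to 0.18) and 0.04 (-0.16 to 0.25), so that the sign in polysomal RNA turned.

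**Figure D2:**
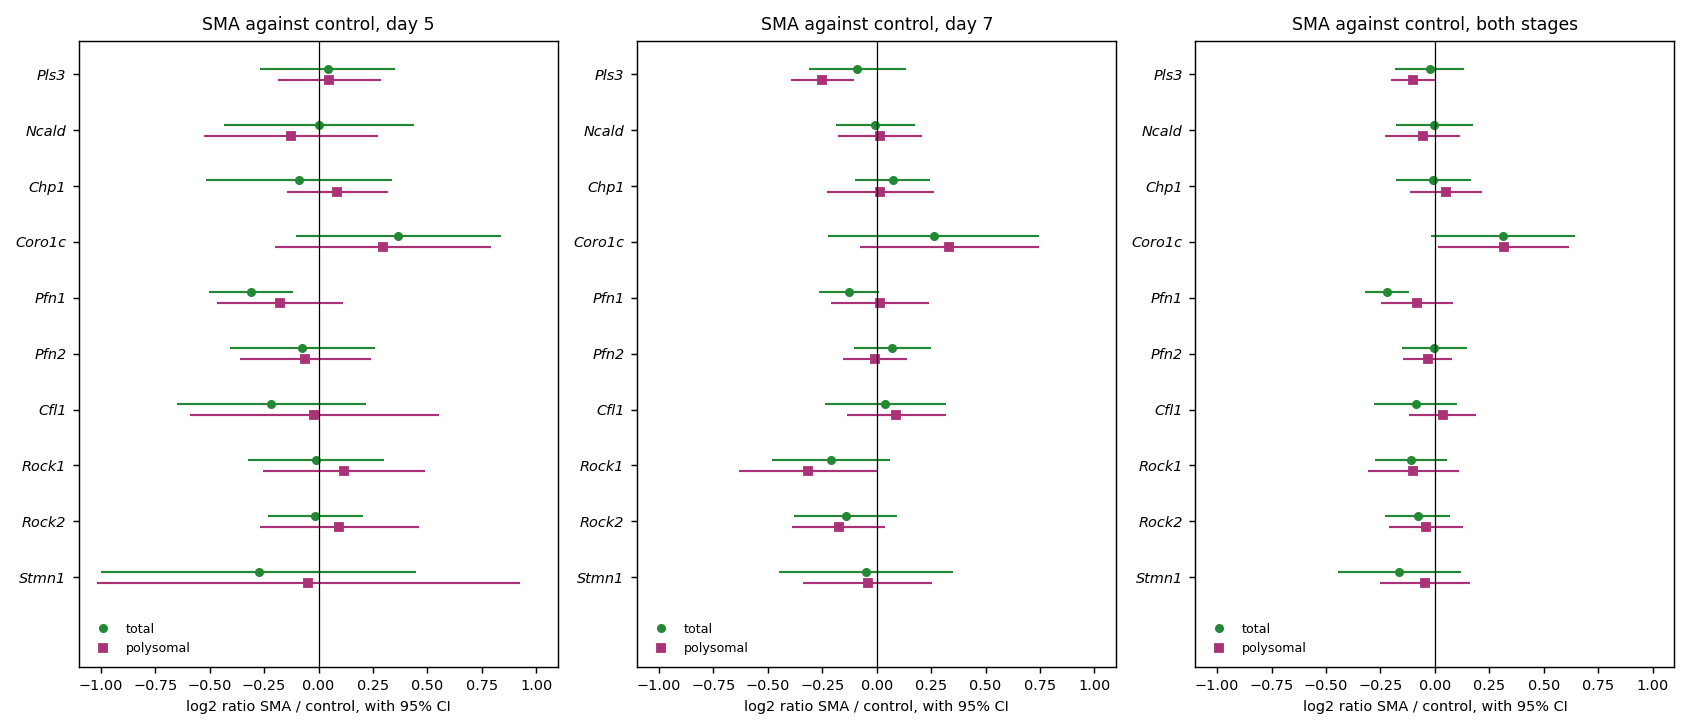
Log2 ratio of SMA over control (horizontal axis) for each gene (vertical axis) at day 5, at day 7 and over both stages; points are limma estimates in total and polysomal RNA and lines are 95% intervals. Only Pfn1 in total RNA (day 5 and both stages), Pls3 in polysomal RNA at day 7 and Coro1c in polysomal RNA over both stages have intervals that leave out 0.

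Across all tested genes the SMA effect differed between the stages at the same threshold for 10.1% in the transcriptome and 13.7% in the translatome, and after adjustment for 0.125% and 0.597%. Of the 10 genes, none did so in the transcriptome and 2 in the translatome, Pls3 and Rock1, neither after adjustment.

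The second comparison was that of translation efficiency (TE), the ratio of polysomal to total RNA of a gene. None of the 10 genes was called for a change in TE between genotypes, against 2.32% of the tested genes early and 2.07% late (0.617% and 0.0394% after adjustment). Both unadjusted shares are below what a threshold of 0.05 lets through by chance, so this fit was conservative. The absence of a call therefore does not show that TE was unchanged. All 10 had a limma adjusted p of 1 at both stages. The smallest unadjusted p late belonged to Pls3, with a ratio of polysomal to total mean FPKM of 1.25 in control and 1.12 in SMA brains and a change in log2 TE of -0.16 (95% interval -0.40 to 0.08). For Stmn1 the early ratio was 1.25 in control and 1.46 in SMA brains, and the interval of the log2 change was -0.45 to 0.91. The early intervals are wide, and log2 changes between -0.69 and 0.91 lie within the interval of at least 1 of the 10 genes.

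In control brains most of these mRNAs had higher FPKM in polysomal than in total RNA. FPKM are relative to the mapped fragments of a library, so these ratios compare shares of each fraction and not amounts of RNA. At day 7 all 10 log2 ratios of polysomal over total RNA were above 0, with a median of 0.23 against 0.05 over all tested genes, and at day 5 this held for 9 of 10, with a median of 0.15 against 0.02. After adjustment, the rule used for this comparison, none of the 10 passed at either stage, against 1.32% of the tested genes at day 5 and 7.12% at day 7. The largest late ratios were those of Stmn1 (0.41 ± 0.10, SE), Ncald (0.33 ± 0.09) and Pls3 (0.32 ± 0.07), with limma adjusted p of 0.0764, 0.0997 and 0.07. Rock1 had the smallest late ratio, 0.04 (95% interval -0.25 to 0.33).

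The third comparison was that of day 7 with day 5 in control brains, in which stage and any batch that followed it cannot be told apart. Sex was not balanced in it either. By the sex markers both day 5 control mice were male, and at day 7 2 were female and 1 male. The part of sex in these differences, also for the X-linked Pls3, was not tested. Of the 10 genes 4 passed adjustment in the transcriptome, against 21.2% of all tested genes, and 2 in the translatome, against 20.6%. Pfn1 rose from 96.7 and 99.5 FPKM to 140, 145 and 151 FPKM in total RNA, a log2 ratio of 0.57 ± 0.04 (SE; limma adjusted p = 0.0101), and by 0.64 in polysomal RNA (limma adjusted p = 0.0387). Pfn2 rose in total RNA by 0.45 (limma adjusted p = 0.016), from 223 and 217 to 306, 306 and 285 FPKM. Pls3 rose in both fractions, by 0.39 in total (limma adjusted p = 0.045) and by 0.48 in polysomal RNA (limma adjusted p = 0.0276). Stmn1 fell by 0.72 on the log2 scale in total RNA (limma adjusted p = 0.0265), from 1143 and 1201 to 704, 647 and 793 FPKM. In polysomal RNA its ratio of -0.64 did not pass (limma adjusted p = 0.076). All values of day 7 lay beyond those of day 5 for each of these 4 genes in total RNA. Coro1c had a ratio of -0.52 in total RNA (95% interval -1.06 to 0.02) and Rock2 one of 0.11 (-0.18 to 0.40). Without either day 5 control mouse none of the 4 calls in total RNA was kept, although the log2 ratios of these 4 genes kept their direction without any of the 5 control mice. The total RNA calls of Pls3, Pfn2 and Stmn1 were also lost without control mouse 1 or 2 of day 7, and those of Pls3 and Stmn1 with no filter on low values. In polysomal RNA 0 of the 10 genes were called without a filter on low values or without any 1 of 4 control mice, and 1 (Pls3) without control mouse 2 of day 5.

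Neuronal and microglial markers also differed between the stages in the same libraries. Among neuronal markers 3 of 4 rose in control total RNA (Rbfox3, Snap25 and Syt1), their list median being 0.51, and so did 3 of 4 microglial markers (Csf1r, P2ry12 and Cx3cr1), with a list median of 0.55. The summed level of the microglial list was 40.8 and 41.3 FPKM at day 5 and 61.8, 60.8 and 53.5 FPKM at day 7 in control total RNA, with P2ry12 as its most abundant gene. None of the neuronal and microglial markers was at 0 in those libraries. Hba-a1 (erythroid) and Cspg4 (oligodendrocyte precursors) also rose, and the list medians were 0.54 for oligodendrocyte and -0.50 for progenitor markers, with no marker of either list called. Their part in the stage differences of Pfn1, Pls3 and Stmn1 was not tested.

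**Figure D3:**
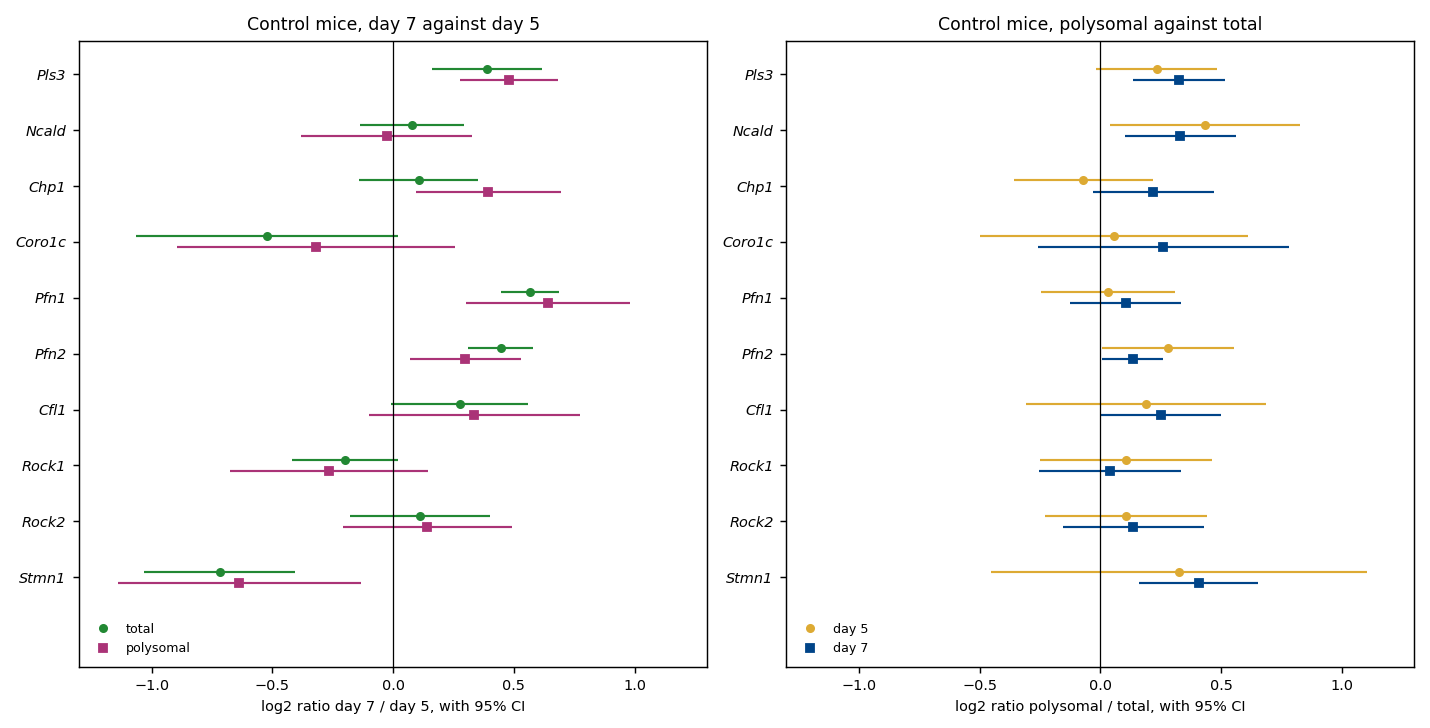
Log2 ratios in control mice for each gene (vertical axis), with day 7 over day 5 in total and polysomal RNA on the left and polysomal over total RNA at each stage on the right; points are limma estimates and lines 95% intervals. Pls3, Pfn1 and Pfn2 lie above 0 and Stmn1 below 0 on the left, and all 10 points of day 7 lie above 0 on the right.

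Around these genes, 127 genes in 7 related lists were looked up, of which 123 were in the table and 122 passed the filter. Of these, 3 (Map1b, Tubb3 and Tuba1a) are listed at 0 in both early control polysomal libraries, although their other libraries hold at least 144, 562 and 1493 FPKM, and Tuba1a is listed at 0 in both early SMA polysomal libraries too. They were left out here, which leaves 119 genes. Over both stages 10 of the 119 were higher and 11 lower in the SMA transcriptome (median log2 ratio 0.02), and 16 higher and 16 lower in the translatome (median 0.01). These totals of 21 and 32 genes stand beside the backgrounds of 16.3% and 20.8% of all tested genes given above. Over both stages the log2 ratios of all genes correlated with transcript length across genes (Spearman's rank correlation 0.319 in total and 0.235 in polysomal RNA). The values of the listed genes are given without the length correction, and the part of length in them was not tested.

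The RhoA pathway, the signalling route from small GTPases to cofilin and myosin, held the clearest single differences, in 26 genes tested. Over both stages 4 were higher and 3 lower in the transcriptome, none after adjustment (26.9% called, against 16.3% of all tested genes). In the translatome over both stages 5 were higher and 5 lower (38.5%, against 20.8%), with a median of 0.04. Of these, 3 passed adjustment, all lower, against 1.84% of all tested genes. Rhoc, a small GTPase, had polysomal levels of 26.4 and 25.0 FPKM in early control and 16.1 and 15.1 FPKM in early SMA brains. Late values were 18.1, 17.8 and 18.5 FPKM against 15.4, 15.8 and 14.3 FPKM. All SMA values of a stage were below all control values, and over both stages Rhoc fell by 0.49 on the log2 scale (SE 0.04, limma adjusted p = 0.000884). Its log2 ratio was -0.72 early and -0.26 late, both past the threshold, as was the difference between the stages. Myl9, a regulatory light chain of smooth muscle and non-muscle myosin, stood at 15.0, 15.1 and 18.9 FPKM in late control and 9.23, 8.97 and 10.3 FPKM in late SMA polysomal RNA. It fell by 0.68 over both stages (limma adjusted p = 0.0261), and Myl12a, another myosin light chain, fell by 0.23 (limma adjusted p = 0.0407). The cofilin phosphatase Ssh1 had a log2 ratio of 0.39 (95% interval 0.16 to 0.63, limma adjusted p = 0.101), with 0.63 early and 0.16 late. Neither was past the threshold alone, but the difference between the stages was.

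Among 15 genes for severing, capping and monomer binding, 6 were lower and none higher in the translatome over both stages, and 2 were lower in the transcriptome, none after adjustment. Of all tested genes 16.3% were called in the transcriptome and 20.8% in the translatome, there 1499 higher and 1678 lower. The list median was -0.09 in the translatome. Tmsb4x (thymosin beta 4, which sequesters actin monomers) had a ratio of -0.32, Cap2 (a cyclase-associated protein) of -0.28, Twf2 (twinfilin 2) of -0.27 and Dstn (destrin, a relative of cofilin) of -0.15. None of the 15 was called in either fraction at a single stage. The early and late polysomal ratios were -0.50 and -0.14 for Tmsb4x, -0.21 and -0.36 for Cap2, -0.43 and -0.12 for Twf2 and -0.28 and -0.02 for Dstn, and for Dstn the stages differed past the threshold. In nucleation and elongation, 17 genes, 4 were lower and 1 higher in the transcriptome and 3 lower and 1 higher in the translatome. These are 29.4% and 23.5% of the list, against 16.3% and 20.8% of all tested genes, and the medians were -0.03 and -0.01. Vasp, which promotes filament elongation, had ratios of -0.31 and -0.30, and the Arp2/3 complex subunit Arpc3 of -0.32 and -0.27. For Vasp the early ratios were -0.46 and -0.47 and the late ones -0.15 and -0.13, and the stages differed past the threshold in both fractions. Enah, a relative of Vasp, had a polysomal ratio of 0.48 early and -0.01 late, a difference past the threshold, and 0.23 over both stages (95% interval 0.02 to 0.44). Of 12 bundling and crosslinking genes, the family of Pls3 and Coro1c, 1 was lower in the transcriptome over both stages (Coro1a, -0.14). This was 8.33% of the list, against 16.3% of all tested genes. The list medians were 0.22 in total and 0.18 in polysomal RNA early and -0.13 and -0.06 late, against 0.01 and -0.01 early over all tested genes. The SMA effects at the 2 stages differed past the threshold for 4 of the 12 in polysomal RNA, 3 lower and 1 higher at day 7 (33.3%, against 13.7% of all tested genes). In the translatome over both stages 1 was lower and 1 higher (16.7%, against 20.8% of all tested genes). These were Lcp1 (plastin 2, expressed in blood cells), with a ratio of -0.41, and Actn4 (actinin 4), with 0.19. By stage, the ratios were -0.78 early and -0.05 late for Lcp1 and 0.41 early and -0.02 late for Actn4. Neither was called at a single stage, and for both the stages differed past the threshold.

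Of 16 stathmin and microtubule-associated genes, without those at 0, 2 were higher in the transcriptome and 4 in the translatome over both stages and none was lower, against 16.3% and 20.8% of all tested genes called in either direction. The medians were 0.11 and 0.13. Early, 3 were higher in total and 4 in polysomal RNA and none was lower, with medians of 0.23 in each, against 8.25% and 12.5% of all tested genes called. Late, 3 were higher and 1 lower (Map4) in total RNA and none was called in polysomal RNA, with medians of 0.01 and 0.04, against 9.54% and 10.7% of all tested genes. Map2, of neuronal dendrites, had ratios of 0.24 (95% interval 0.14 to 0.34) and 0.18 (0.07 to 0.29) and Mapre3, a plus-end binding protein, of 0.40 in the translatome, where its ratio was 0.71 early and 0.09 late. The stages differed past the threshold for Map2 in both fractions and for Mapre3 in the translatome. In the neuronal calcium sensor and calcineurin list, 14 genes, 1 was higher in the transcriptome and 2 in the translatome over both stages. None was lower, and the shares of 7.14% and 14.3% stood against 16.3% and 20.8% of all tested genes. The medians were 0.03 and 0.01. Early, 1 was lower and none higher in each fraction, and late, 1 was higher and none lower in each. At either stage this was 7.14% of the list, against the backgrounds given above. Over both stages Hpcal1, a calcium sensor related to neurocalcin, was higher in polysomal RNA by 0.44 (95% interval 0.13 to 0.75). Among 19 clathrin endocytosis genes 2 were higher and 1 lower in the transcriptome and 3 higher and 1 lower in the translatome over both stages. These shares of 15.8% and 21.1% are near the 16.3% and 20.8% of all tested genes. The list medians were 0.01 and 0.003. The clathrin heavy chain Cltc had a ratio of 0.21 in total RNA, the light chain Clta one of -0.19 in polysomal RNA, and the adaptor subunit Ap2b1 one of 0.20 in polysomal RNA. In these fractions the early and late ratios were 0.40 and 0.02 for Cltc, -0.34 and -0.03 for Clta and 0.33 and 0.07 for Ap2b1. Cltc and Ap2b1 were called early, none of the 3 late, and the stages differed past the threshold for Cltc and Ap2b1.

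**Figure D4:**
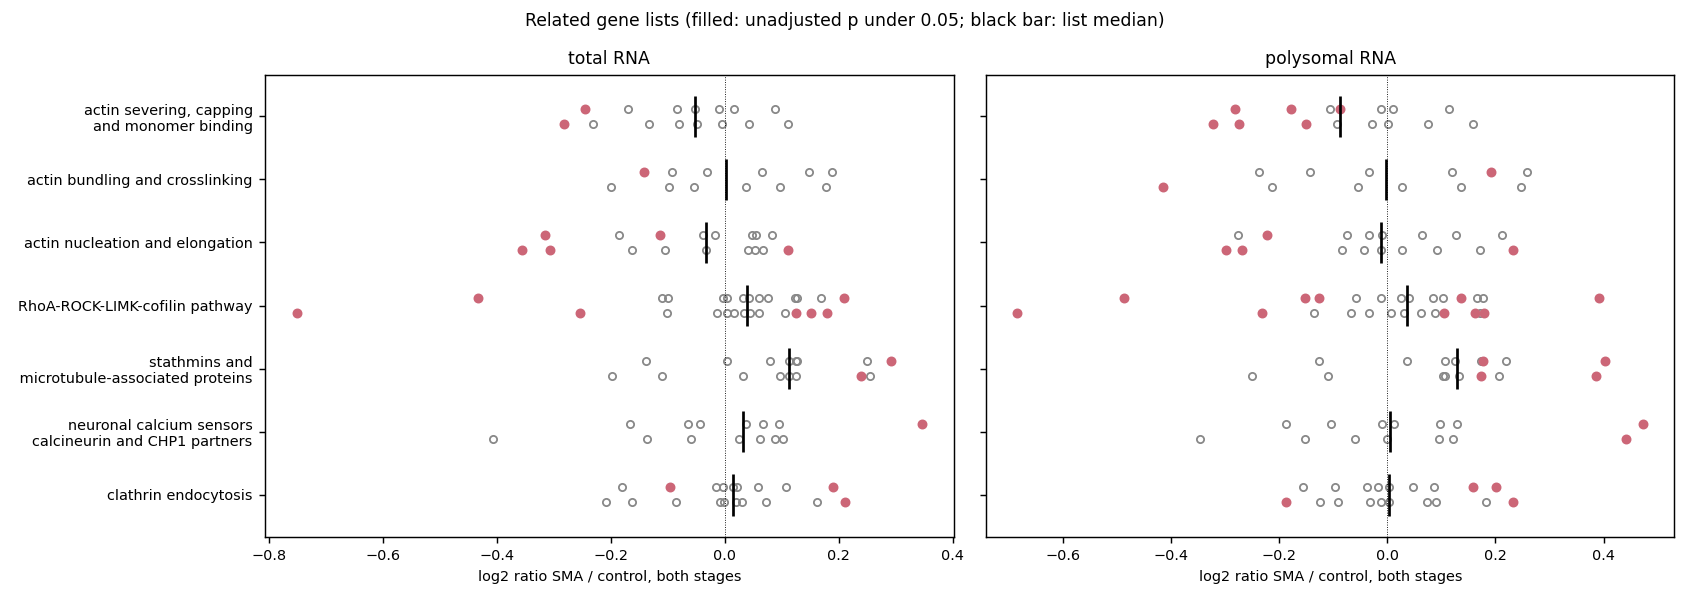
Log2 ratio of SMA over control over both stages (horizontal axis) for each gene of the 7 related lists (rows), in total RNA on the left and polysomal RNA on the right; filled points passed an unadjusted p under 0.05 and black bars are list medians. List medians lie between -0.09 and 0.13, and the 2 points farthest to the left are Myl9 and Rhoc in both panels.

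Markers of blood vessels fell in the same SMA libraries. All 4 endothelial markers (Cldn5, Kdr, Flt1 and Pecam1) and all 3 pericyte markers (Rgs5, Pdgfrb and Kcnj8) were lower over both stages in both fractions, with list medians of -0.56 in each fraction for endothelial and -0.73 and -0.53 for pericyte markers. Summed endothelial markers stood at 50.5, 50.9 and 58.4 FPKM in late control and 27.8, 33.3 and 26.4 FPKM in late SMA polysomal RNA, led by Cldn5. Summed pericyte markers, led by Rgs5, stood at 43.5, 48.1 and 49.3 FPKM against 19.0, 22.6 and 18.0 FPKM. The groups did not overlap, and no marker of either list was at 0 in all libraries. None of the 4 neuronal markers was called over both stages in total RNA (list median -0.11). Numbers of vessel cells were not measured. Whether the lower vessel marker levels bear on the values of Rhoc, Myl9, Vasp, Pfn1 or Pls3 was not tested. Among microglial markers P2ry12 was lower in both fractions, and among erythroid markers Hba-a2. Among astrocyte markers Slc1a3 was higher in the transcriptome, and of the 2 markers of oligodendrocyte precursors both were higher in the transcriptome (Pdgfra and Cspg4) and 1 in the translatome (Cspg4). Of the 4 progenitor markers Top2a was lower in the translatome, and no marker of immature neurons, oligodendrocytes or cholinergic neurons was called in either fraction.

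**Figure D5:**
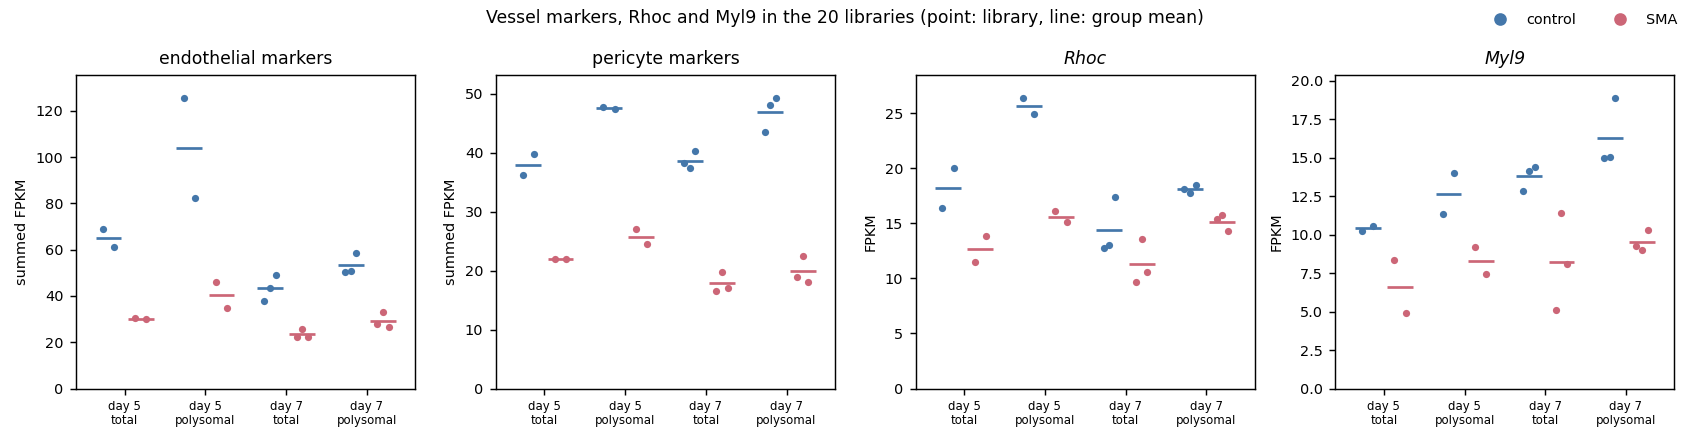
Summed FPKM of endothelial and pericyte markers and FPKM of Rhoc and Myl9 (vertical axes, from 0) in the 20 libraries by stage, fraction and genotype; points are libraries and lines group means. SMA points lie below control points in every group for both marker sums, and for Rhoc in all groups but late total RNA, where 1 SMA library lies inside the control range.

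Over the 20 libraries some members varied together and others in opposite directions. The libraries share stage and fraction and may share a mouse, so these correlations of log2 values are descriptions. Pfn2 and Cfl1 had a Pearson's r of 0.869, Pfn1 and Cfl1 0.862 and Pfn1 and Pfn2 0.852. Pls3 had r of 0.792 with Cfl1 and 0.762 with Pfn1. Rock1 had negative values with Pfn1 (-0.707), Chp1 (-0.643), Pfn2 (-0.642) and Cfl1 (-0.582), as had Pfn1 with Stmn1 (-0.575) and with Coro1c (-0.57). Among 14334 other genes above 0 FPKM in every library, the closest to Pls3 was Atp2b1, a plasma membrane calcium pump (r = 0.931). The closest to Ncald was Vps26b of the retromer (0.936), to Chp1 Jmjd4 (0.921) and to Coro1c the tyrosine kinase Src (0.900). Pfn1 was most like Emd, which encodes emerin of the nuclear envelope (0.982), Pfn2 most like Ubxn8 (0.962) and Cfl1 most like the proteasome subunit Psmb2 (0.965). For Stmn1 it was the RNA-binding protein Hnrnpab (0.971), for Rock1 the golgin Golga4 (0.929) and for Rock2 the polyadenylation factor Fip1l1 (0.823), the lowest of the 10 values.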

How the data were processed

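Brain total and polysomal RNA, with 5 control and 5 SMA libraries of each, was sequenced as 100 bp reads from stranded total RNA libraries. Per the submitters' processing notes and the study's methods, reads were aligned with TopHat2 2.0.14 to GRCm38.p4 (Gencode annotation) and the authors computed the deposited FPKM with Cufflinks 2.2.1, 1 value per gene and library. The table has no columns of comparisons, and 0 of its value columns lacked a sample. It summed to 571462 to 997685 FPKM per library, and holds no read counts, so the depth behind a value is unknown.

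Genotype, stage, fraction and replicate were taken from the sample labels. The genes, the related lists, the markers and the tests were chosen with earlier results of these data known. List genes whose log2 ratios are given are among the up to 4 per list and fraction with the smallest unadjusted p over both stages, of those called. Map4 was named outside this rule. The likeness to other genes was the highest Pearson's r.

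limma 3.58.1 in R 4.3.3 (lmFit, eBayes with a trend) was run on log2(FPKM + 0.1) for genes whose mean reached 1 FPKM, fitted on the libraries of each comparison and adjusted by Benjamini-Hochberg over all 15247 genes. Both stages were fitted with stage, genotype and their interaction, and the effect is the mean of both stages. TE change was the interaction of genotype and fraction. The calculation was tested on simulated data. Near-identical transcripts were searched with BLAST in the Gencode M21 transcripts, and lengths came from the same annotation, for 99.4% of the tested genes. The study used CuffDiff and Xtail, which need alignments or counts. Diaph1, Diaph2, Diaph3 and Pdxp were not analysed here. The result of 1 list gene that was called is not reported here. The labels do not say whether samples of a group were separate litters, so p-values measure the spread between these mice.

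Alternatives were pseudocounts of 1 and 0.01, no filter, filters at a mean of 5 FPKM or above 0 FPKM in every library, equal medians, quantile normalization, no trend, 1 model over all 20 libraries, a length correction (a lowess curve against log length, span 0.3, taken from each library), a replicate block and leaving out each mouse. Sex as a term was added after seeing the data.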

Additional observations from a re-analysis of the deposited data

Results flagged for a closer look

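The SMA effect on polysomal Pls3 differed between the stages by -0.30 on the log2 scale (day 7 minus day 5; 95% interval -0.50 to -0.10; limma adjusted p = 0.298). It was -0.25 at day 7, with every SMA library below every control library, and 0.05 at day 5, where the genotypes overlapped. The call held in 21 of 21 alternatives.

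The SMA effect on polysomal Rock1 differed between the stages by -0.43 (95% interval -0.85 to -0.02; limma adjusted p = 0.357), from 0.12 at day 5 to -0.31 at day 7, neither past the threshold alone. It was lost in 11 of 21 alternatives, among them the correction for transcript length (-0.28) and the omission of any of 8 mice. Other interactions between stage and genotype were not called for these genes, and groups of 2 or 3 libraries are too small for a search for single outlying libraries.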

How the results depend on the processing

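No call changed sign. The late polysomal call of Pls3 held in 18 of 18 alternatives and its stage difference in 21 of 21, that of Pfn1 over both stages in total RNA in 21 of 22, that of Pfn1 early in 12 of 16, that of Coro1c in 13 of 22 and that of Rock1 in 10 of 21. For the late polysomal comparison, 1 of the 10 genes was called and 2 were with a pseudocount of 0.01, no filter, a filter at 5 FPKM, no trend, 1 model over all libraries or sex as a term, and 3 with a filter above 0 FPKM in every library. For both stages in total RNA 1 was called, and 2 were with that last filter, 1 model, the length correction or sex. In polysomal RNA 1 was called, 2 with a pseudocount of 0.01 or quantile normalization and 0 with sex. Early total RNA gave 1, and 0 after length correction. Early polysomal RNA gave 0, and 1 after quantile normalization. Late total RNA gave 0, and 1 with sex. Polysomal against total RNA in controls gave 0 at both stages, 2 early and 1 late with 1 model, and 2 late after quantile normalization. Day 7 against day 5 gave 4 in total RNA and 2 without a filter. In polysomal RNA it gave 2, and 0 without a filter, 4 with the filter above 0 FPKM or the length correction, and 6 with 1 model. The stage difference gave 0 in total RNA and 1 with equal medians or sex, and 2 in polysomal RNA and 1 with equal medians, quantile normalization or length correction. The cause was not tested. Sex as a term was chosen after seeing the data.

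Leaving out each mouse (1 replicate number of a genotype and stage), the numbers called ranged from 0 to 1 (early total), 0 to 2 (early polysomal), 0 to 2 (late total), 1 to 2 (late polysomal), 1 to 3 (both stages, total) and 0 to 2 (both stages, polysomal). They ranged from 0 to 1 for early control polysomal against total RNA, 0 to 5 and 0 to 1 for day 7 against day 5 in total and polysomal RNA, and 0 to 1 and 1 to 3 for the stage difference. TE stayed at 0. Where 1 mouse was left in a group, it was assumed to vary like the others, and for early control polysomal against total RNA the spread came from all libraries.

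With a replicate block (the replicate number as a term) 0 genes were called early in total RNA, where Pfn1 kept its log2 ratio of -0.31 (limma adjusted p = 0.638). Over both stages in polysomal RNA 1 was called, Pls3 (-0.10) in place of Coro1c (0.32). The block changed no other call. Between genotypes it pairs control and SMA libraries of the same number, a pairing that the labels do not give. With the block, the numbers called for TE and for polysomal against total RNA in controls were 0 at both stages, as without it. Whether a number marks 1 mouse in both fractions is not stated. Libraries of the same number in total and polysomal RNA showed the same sex for 10 of 10 numbers and deviated together with r of 0.122 to 0.539 over coding genes of at least 5 FPKM, a hint from the data, but of -0.0391 to 0.109 over all tested genes. Those of control and SMA mice had r of -0.0902 to 0.0327 over all tested and -0.302 to 0.195 over those coding genes.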
